A study of Homo sapiens with 4 samples.

Results

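The receptor tyrosine kinase genes PDGFRA, KIT and KDR lie side by side on the long arm of chromosome 4, and were examined here with the related receptor FLT1, the ligands PDGFA, PDGFC, VEGFA and KITLG, and the lncRNA ENSG00000250646, which overlaps KDR. They are 9 genes with 95 transcripts, of 62218 genes and 244825 transcripts in the data. The genes were selected on the contrast between the 2 cell states described here, so their differences are given as a description and without a test. Nanopore cDNA sequencing of total RNA was made in wild-type H1, an established human embryonic stem cell (hESC) line, in 2 states with 2 replicates each. Primed hESCs were grown in mTeSR, at normal oxygen. Naïve hESCs were derived from the H1 primed cells and grown in the condition labelled FINE, at low oxygen, with Dasatinib, AZD5438, SB590885, PD0325901, Y-27632, LIF, Activin A and bFGF. The state, the medium and the oxygen level changed together, so their parts in any difference cannot be told apart. All cells came from the same line, and it is not stated whether replicates were separate cultures, so that p-values measure the spread between these libraries only, which may be technical.

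The receptors share a plan of extracellular immunoglobulin-like domains, a single membrane-spanning segment and a split intracellular kinase domain. Ligand dimers bring receptors together, the kinases phosphorylate each other, and adaptor proteins carry the signal to RAS, PI3K, PLCγ and SRC family kinases. PDGFRA is known for its role in mesenchyme and in the primitive endoderm of the embryo, KIT in germ cells, blood progenitors and melanocytes, and KDR and FLT1 in endothelium. Dasatinib, a component of the naïve medium, is an inhibitor whose known targets include SRC family kinases, KIT and the PDGF receptors. It acts on kinase proteins, which were not measured here.

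All 9 genes had at least 10 counts in at least 2 libraries. A count is an alignment that touches the whole span of a transcript, introns included and strand ignored, and the count of a gene is that of its transcript with the largest mean count. Values are CPM, counts relative to library size, normalized by the TMM method of edgeR. Over all 27633 genes tested, 70.0% were called different between the states by the quasi-likelihood test of edgeR (adjusted p under 0.05), with 37.4% higher and 32.6% lower in primed hESCs. All 9 genes were called, 7 of them higher and 2 lower in primed hESCs, which the choice of the genes sets. The libraries held between 129276054 and 161548901 counts over all transcripts. The library sizes used for CPM took 1 transcript per gene and lay between 23542387 and 30978742, with TMM factors between 0.779 and 1.25. On this scale 3 counts, the upper limit that a count of 0 allows, came to between 0.0978 and 0.130 CPM. Limits and intervals cover counting error only, since reads carried no molecular identifiers. The state labels were set beside marker genes. The markers were chosen with earlier results of these data known, so they are no independent check of the labels. Of 6 markers of the primed state, 6 were higher in primed hESCs. Among them was THY1, with 0 and 0 counts in naïve and 2039 and 1888 in primed libraries. The overlapping USP2-AS1 had counts equal to 105.8% of those of THY1. Of 8 markers of the naïve state, 8 were lower in primed hESCs, among them DPPA3 with 3469 and 3745 counts in naïve and 10 and 6 in primed libraries. One of the 8, KLF17, changed its direction when libraries were scaled by their size alone, and the overlapping ENSG00000233514 had counts equal to 99.2% of its own.

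The 250 bases before an annotated transcript start of each receptor and of KITLG are shown because these genes moved in the same direction and differ widely in base composition. They are given 5′ to 3′ on the strand of the gene, and capitals mark a GC box, searched as GGGCGG or its reverse complement CCGCCC. Sequences are from RefSeq (GRCh38.p14). The starts of KIT and KITLG used here lie inside KIT-217 and KITLG-201, the longer transcripts counted below, so their windows are not upstream of those transcripts. The windows are chr4:54229043-54229292 (PDGFRA, plus strand), chr4:54657707-54657956 (KIT, plus strand), chr4:55125596-55125845 (KDR, minus strand), chr13:28495129-28495378 (FLT1, minus strand) and chr12:88580472-88580721 (KITLG, minus strand).
PDGFRA: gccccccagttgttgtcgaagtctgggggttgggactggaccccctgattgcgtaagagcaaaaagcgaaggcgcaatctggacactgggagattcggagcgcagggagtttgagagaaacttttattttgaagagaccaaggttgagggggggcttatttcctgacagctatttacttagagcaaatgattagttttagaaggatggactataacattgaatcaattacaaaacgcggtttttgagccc
KIT: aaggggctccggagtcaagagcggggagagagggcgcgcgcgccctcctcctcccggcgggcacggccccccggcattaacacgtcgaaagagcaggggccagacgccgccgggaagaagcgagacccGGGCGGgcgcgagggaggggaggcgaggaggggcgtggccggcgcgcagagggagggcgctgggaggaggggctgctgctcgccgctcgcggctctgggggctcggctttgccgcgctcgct
KDR: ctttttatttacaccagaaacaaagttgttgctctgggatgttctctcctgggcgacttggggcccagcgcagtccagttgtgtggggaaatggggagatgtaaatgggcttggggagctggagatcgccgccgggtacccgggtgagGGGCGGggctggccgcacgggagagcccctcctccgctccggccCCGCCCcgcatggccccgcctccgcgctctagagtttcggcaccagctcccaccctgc
FLT1: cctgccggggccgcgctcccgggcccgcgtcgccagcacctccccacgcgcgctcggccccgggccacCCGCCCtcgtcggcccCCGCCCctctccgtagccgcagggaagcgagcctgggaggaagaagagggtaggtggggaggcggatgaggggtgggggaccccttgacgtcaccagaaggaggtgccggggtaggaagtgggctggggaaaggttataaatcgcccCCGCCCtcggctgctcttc
KITLG: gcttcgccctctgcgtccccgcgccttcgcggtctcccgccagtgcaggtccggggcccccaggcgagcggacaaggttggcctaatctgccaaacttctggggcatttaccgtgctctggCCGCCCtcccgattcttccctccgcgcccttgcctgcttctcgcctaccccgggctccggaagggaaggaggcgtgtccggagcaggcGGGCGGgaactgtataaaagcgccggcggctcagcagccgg
Of 35116 RefSeq promoter windows of this length, 42.6% held a GC box, and the median window had 11 CpG dinucleotides and a GC content of 58%. The window of PDGFRA held no GC box and 8 CpG, at a GC content of 46.8%. That of KIT held 1 GC box and 34 CpG, at 76.4% GC. Both other receptors lay between these in CpG number, KDR with 2 GC boxes and 17 CpG and FLT1 with 3 GC boxes and 25 CpG. A window with at least 3 GC boxes was found for 13.9% of all promoters. KITLG had 2 GC boxes and 26 CpG, and at least 20 CpG were found in 32.4% of all windows. Of the windows shown, only that of PDGFRA was under the median in CpG number. The windows were shown for their spread in base composition, so this spread is not a result. A match is a description of letters and not of a bound site. Of the 9 genes, 6 had an entry in the promoter table. VEGFA and PDGFC had none.

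KDR, the main signalling receptor for VEGFA, had the largest full count of the receptors in primed hESCs and nearly none in naïve hESCs. The overlapping lncRNA may hold part of this count, so the rank of KDR above FLT1 is not established. Its span is chr4:55078481-55125595 on the minus strand (transcript KDR-201, 30 exons). KDR had 1 and 3 counts in naïve and 1108 and 1168 counts in primed libraries. On the CPM scale, KDR was at 0.0804 ± 0.0525 in naïve and 37.8 ± 0.317 in primed hESCs (mean ± SD, n = 2 in each state here and below). The ratio of the summed counts, scaled by library size and TMM, was 459.9, with a 95% exact counting interval from 179.4 to 1689. The fitted log2 fold change was 8.77, and it was 9.60 without naïve replicate 2 and 8.26 without naïve replicate 1. The naïve level rests on 4 counts in all, so the size of the fold is known far less well than its direction. KDR overlaps ENSG00000250646. On the alignments that must miss this lncRNA, described below, the ratio was 150.0. This ratio is a lower bound and lies under the interval of the full count.

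FLT1, which binds VEGFA, VEGFB and PGF and has a weaker kinase than KDR, had the next largest primed count after the full count of KDR. Its span is chr13:28300346-28495128 on the minus strand (FLT1-201, 30 exons). FLT1 had 10 and 14 counts in naïve and 710 and 749 counts in primed libraries. Its level was 0.491 ± 0.0814 CPM in naïve and 24.3 ± 0.216 CPM in primed hESCs, a ratio of 49.1 (95% counting interval 32.9 to 76.9) and a log2 fold change of 5.61. Both receptors for VEGF ligands were thus low in both naïve libraries and differed by little between the primed libraries.

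KIT, the receptor for stem cell factor, was detected in every library. Its span is chr4:54657267-54740695 on the plus strand (KIT-217, 21 exons). KIT had 9 and 10 counts in naïve and 165 and 154 counts in primed libraries, or 0.391 ± 0.00127 and 5.31 ± 0.412 CPM. The ratio was 13.6 (95% counting interval 8.55 to 22.8), with a log2 fold change of 3.75. The naïve level of KIT was above the limit of 3 counts in both libraries, unlike that of KDR.

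PDGFRA, a receptor for PDGF dimers, was the lowest receptor in primed hESCs and its naïve replicates differed. Its span is chr4:54229293-54298245 on the plus strand (PDGFRA-201, 23 exons). It had 1 and 13 counts in naïve and 44 and 33 counts in primed libraries, or 0.276 ± 0.329 and 1.28 ± 0.296 CPM. The states did not overlap, but 1 of the naïve libraries held nearly all naïve counts. The ratio was 4.45 (95% counting interval 2.50 to 8.51) and the log2 fold change 2.14. Leaving out naïve replicate 2 gave 4.72, and leaving out naïve replicate 1 gave 1.31, so that a single naïve library sets the size of this difference.

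**Figure D1:**
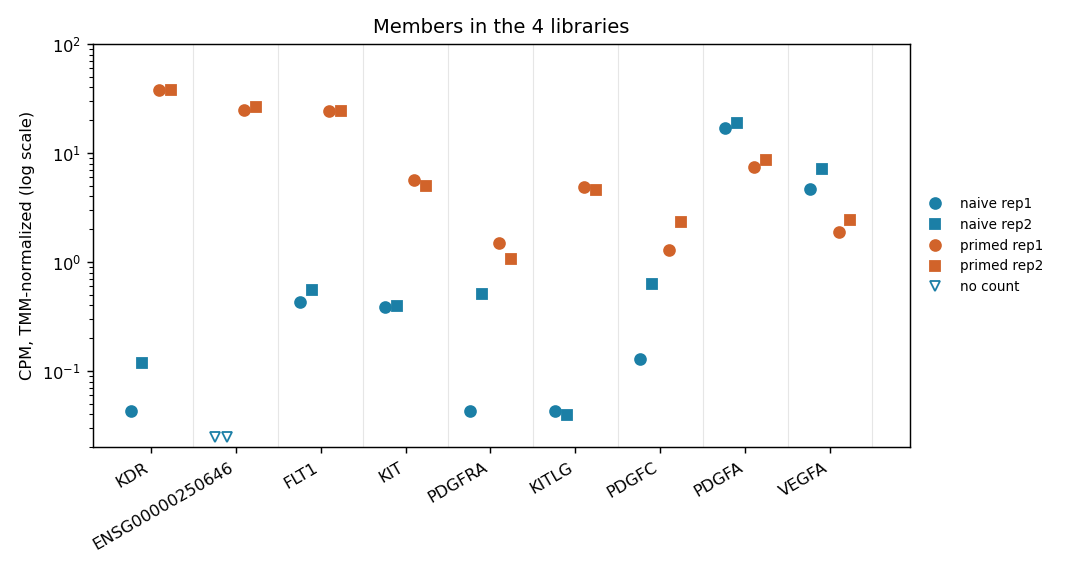
Level of the 9 genes in each of the 4 libraries, in TMM-normalized CPM on a log axis, with naïve libraries in blue and primed libraries in orange (circles replicate 1, squares replicate 2, open triangles no count). KDR, FLT1, KIT, PDGFRA, KITLG, PDGFC and ENSG00000250646 lie higher in both primed libraries, and PDGFA and VEGFA lie higher in both naïve libraries.

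The ligands did not move as a group. KITLG, the gene of stem cell factor, which is the ligand of KIT, was higher in primed hESCs with its receptor. KITLG is at chr12:88492793-88580851 on the minus strand (KITLG-201), and had 1 and 1 counts in naïve and 143 and 141 counts in primed libraries. This corresponds to 0.0412 ± 0.00294 and 4.72 ± 0.184 CPM, a ratio of 114.8 with a 95% counting interval from 31.5 to 952.3. The log2 fold change was 6.69. Both genes of the ligand and receptor pair were thus above 4 CPM in both primed libraries, and KITLG was under the limit of 3 counts in both naïve libraries.

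PDGFC, a PDGF ligand that needs proteolytic cleavage before it binds PDGFRA, was also higher in primed hESCs, at a low level. PDGFC lies at chr4:156760454-156971799 on the minus strand (PDGFC-203), far from the receptors on the same chromosome. It had 3 and 16 counts in naïve and 38 and 71 counts in primed libraries, or 0.378 ± 0.351 and 1.80 ± 0.724 CPM. The ratio was 4.64 (95% counting interval 2.83 to 8.0) and the log2 fold change 2.20. As for PDGFRA, naïve replicate 2 held most of the naïve counts, and the log2 fold change was 3.72 without it and 1.51 without naïve replicate 1.

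PDGFA, the other ligand of PDGFRA examined, went the opposite way and had the highest CPM of these 4 ligands in both states. PDGFA is at chr7:497258-519409 on the minus strand (PDGFA-203). It had 390 and 483 counts in naïve and 220 and 267 counts in primed libraries, or 17.9 ± 1.43 and 8.08 ± 0.871 CPM. The level in naïve hESCs was 2.22 times that in primed hESCs (95% counting interval 1.98 to 2.48), with a log2 fold change of -1.15. Naïve hESCs thus had more PDGFA and less of the receptor PDGFRA than primed hESCs.

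VEGFA, the ligand of KDR and FLT1, was also lower in primed hESCs, where both its receptors were high. VEGFA is at chr6:43770211-43786487 on the plus strand (VEGFA-226). It had 109 and 184 counts in naïve and 55 and 75 counts in primed libraries, or 5.96 ± 1.76 and 2.16 ± 0.408 CPM. The naïve level was 2.79 times the primed level (95% counting interval 2.26 to 3.46) and the log2 fold change was -1.47. With libraries scaled by size in place of TMM, the log2 fold changes of PDGFA and VEGFA were smaller, at -0.51 and -0.84. TMM and library size differ by a shift of all genes. The median log2 fold change of all tested genes was 0.08 with TMM and 0.72 with library size.

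Levels of different genes were compared per kb of exonic sequence of the counted transcript. The scale is approximate because introns are counted too. It also sets long transcripts too low if a long read counts a molecule once at any length, which was not tested. In primed hESCs, KDR was at 6.49 ± 0.0544 CPM per exonic kb on its full count, and at 2.07 ± 0.136 on the alignments that must miss the overlapping lncRNA, a lower bound. FLT1 was at 3.40 ± 0.0303 and PDGFA at 2.95 ± 0.318, so the place of KDR above or below them is not established on this scale. In CPM without the division, FLT1 at 24.3 was further above PDGFA at 8.08. KIT was at 1.04 ± 0.0809, KITLG at 0.823 ± 0.0320 and VEGFA at 0.597 ± 0.113. PDGFC at 0.394 ± 0.158 and PDGFRA at 0.201 ± 0.0464 closed the order, and neither VEGFA from PDGFC nor PDGFC from PDGFRA was separated by more than the sum of their SDs. In naïve hESCs, the ligands PDGFA at 6.53 ± 0.522 and VEGFA at 1.65 ± 0.487 CPM per exonic kb were highest, and every other gene was at or under 0.0828. PDGFC, KIT, FLT1 and PDGFRA were between 0.0433 and 0.0828 in naïve hESCs, and PDGFC and PDGFRA spread too widely between the replicates to be ordered. KDR at 0.0138 and KITLG at 0.00719 were lowest. The highest gene of this order was a ligand in naïve hESCs and a receptor, KDR or FLT1, in primed hESCs. The lncRNA was left out of this order, because its count cannot be assigned to it.

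ENSG00000250646 had 0 and 0 counts in naïve and 736 and 815 counts in primed libraries, at chr4:55053060-55092534 on the plus strand (ENST00000511222, 4 exons, 455 exonic bases). Against a floor of 3 counts in each naïve library, its span was at least 208.3-fold higher in primed hESCs. This is a value of the span and not of the lncRNA. KDR and the lncRNA lie tail to tail on opposite strands, and their spans overlap over 14054 bases. Of the 30 exons of KDR-201, 8 have bases in the span of the lncRNA, and these hold 2462 of 5833 exonic bases, or 42.2%. Of the 4 lncRNA exons, 1 lies in the span of KDR, and none of its bases lies on a KDR exon.

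Since strand was ignored, a KDR alignment that reaches the last exons counts for both genes. The count of the lncRNA was 66.4% of that of KDR in primed replicate 1 and 69.8% in primed replicate 2. At least 372 and 353 primed alignments of KDR missed the lncRNA, against 1 and 3 in the naïve libraries, and these give a ratio of 150.0 and a log2 value of 7.23. The ratio is a lower bound, since an alignment that reaches both spans is left out. The span of KDR-203 lies wholly beyond the end of the lncRNA. It was touched by 602 and 507 primed alignments, against 1 and 3 in the naïve libraries. KDR was thus higher in primed hESCs also on alignments that the lncRNA cannot hold. In the other direction, the number of lncRNA alignments that must miss KDR was 0 in every library. RN7SL424P, a gene inside the 25421 bases of the lncRNA span that lie outside KDR, had 0 counts in all 4 libraries. From these counts, no alignment can be assigned to the lncRNA alone, and its own level may be anywhere from 0 to the full count.

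**Figure D2:**
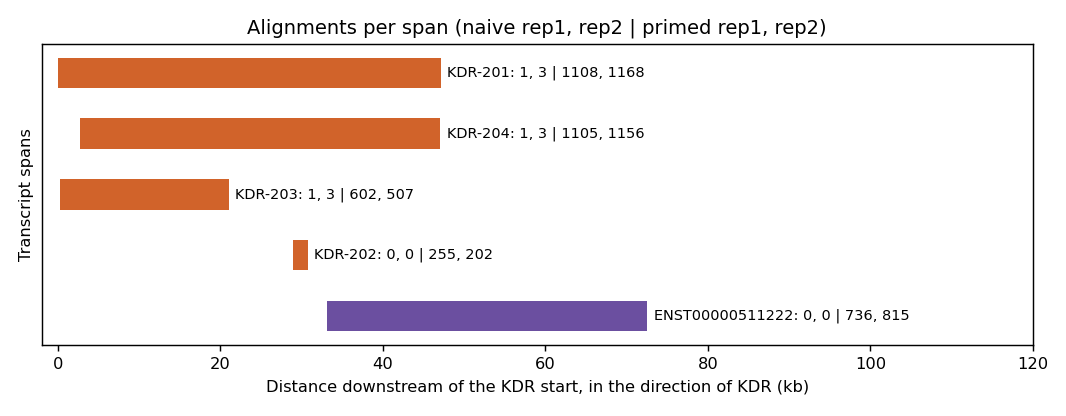
Spans of the 4 KDR transcripts (orange) and of ENSG00000250646 (purple) by distance from the KDR start in kb, each with its counts in naïve replicates 1 and 2 and primed replicates 1 and 2. The lncRNA span covers the downstream part of KDR and reaches beyond the KDR end, with 736 and 815 counts in primed and none in naïve libraries.

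Overlaps with other genes were also examined for the rest of the set. KIT, FLT1 and PDGFA overlapped no other annotated gene. PDGFRA overlaps, except at its 3′ end, a read-through gene, ENSG00000282278 (chr4:53377839-54295272), which runs from FIP1L1 into PDGFRA and had 1393 and 1813 counts in naïve and 878 and 1001 counts in primed libraries. Its direction was the opposite of that of PDGFRA, and any share of it in the PDGFRA count cannot be separated. VEGFA contains the antisense lncRNA ENSG00000272114, with 28 and 37 counts in naïve and 17 and 20 in primed libraries. VEGFA alignments that missed it were 81 and 147 in naïve and 38 and 55 in primed libraries, a log2 ratio of -1.59. KITLG partly overlaps ENSG00000281333, which had 0 and 1 counts in naïve and 14 and 17 in primed libraries. At least 129 and 124 of the primed alignments of KITLG missed it.

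Long reads allow the position of alignments along a gene to be compared where the span of a shorter transcript lies inside that of a longer one. In primed hESCs, most FLT1 alignments lay in the upstream part of the gene. The span of FLT1-204 (chr13:28368096-28495128), a coding transcript that ends well before the exons of the kinase domain, was touched by 81.8% of FLT1 alignments in primed replicate 1 (95% Wilson interval 78.8% to 84.5%) and 77.2% in primed replicate 2 (74.0% to 80.0%). The downstream span of FLT1-203 (chr13:28303144-28346289) was touched by 73 of 710 and 93 of 749 alignments, or 10.3% (8.26% to 12.7%) and 12.4% (10.2% to 15.0%). FLT1 is known to give both a full-length receptor and soluble forms that end early and bind ligand without signalling. Spans do not identify the form a read came from, since a broken cDNA and a read of a pre-mRNA are counted in the same way. In the naïve libraries, 3 of 10 and 5 of 14 alignments touched the downstream span, with intervals from 10.8% to 60.3% and from 16.3% to 61.2%. The interval of naïve replicate 1 overlaps those of both primed libraries, and that of naïve replicate 2 lies above them.

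KIT alignments were more even between an upstream and a downstream span. The upstream span of KIT-204 (chr4:54657939-54695906) was touched by 70.9% (63.6% to 77.3%) and 63.0% (55.1% to 70.2%) of primed alignments. The span of KIT-205 (chr4:54735322-54740711), at the end of the gene, was touched by 69.1% (61.7% to 75.6%) and 51.9% (44.1% to 59.7%). The intervals of KIT-205 lie above those of FLT1-203 in both primed libraries. KIT-205 reaches the end of KIT, while FLT1-203 stops before the end of FLT1 and misses alignments that lie only in its last bases. The shares are thus of unlike positions, and the ends of the genes cannot be compared by them. Of the 24 KIT transcripts, 14 carried the same counts in all libraries, which leaves 11 distinct patterns.

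For KDR, the upstream span of KDR-203 (chr4:55104593-55125293) was touched by 602 and 507 primed alignments, or 54.3% (51.4% to 57.2%) and 43.4% (40.6% to 46.3%). These intervals do not overlap, so the shares of the primed replicates differed by more than counting error. The full count of KDR, by which the shares are divided, may include alignments of the overlapping lncRNA. The part of the lncRNA in the KDR shares was not tested. The short span of KDR-202 (chr4:55094850-55096720) was touched by 23.0% (20.6% to 25.6%) and 17.3% (15.2% to 19.6%). For PDGFRA, the upstream span of PDGFRA-204 (chr4:54230322-54263773) was touched by 14 of 44 and 13 of 33 primed alignments, and the short downstream span of PDGFRA-202 (chr4:54276751-54278246) by 18 and 18. In the naïve libraries, all 1 and 13 alignments of PDGFRA touched the span of PDGFRA-208, which ends before the last exons, while 14 and 4 of the primed alignments missed it.

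**Figure D3:**
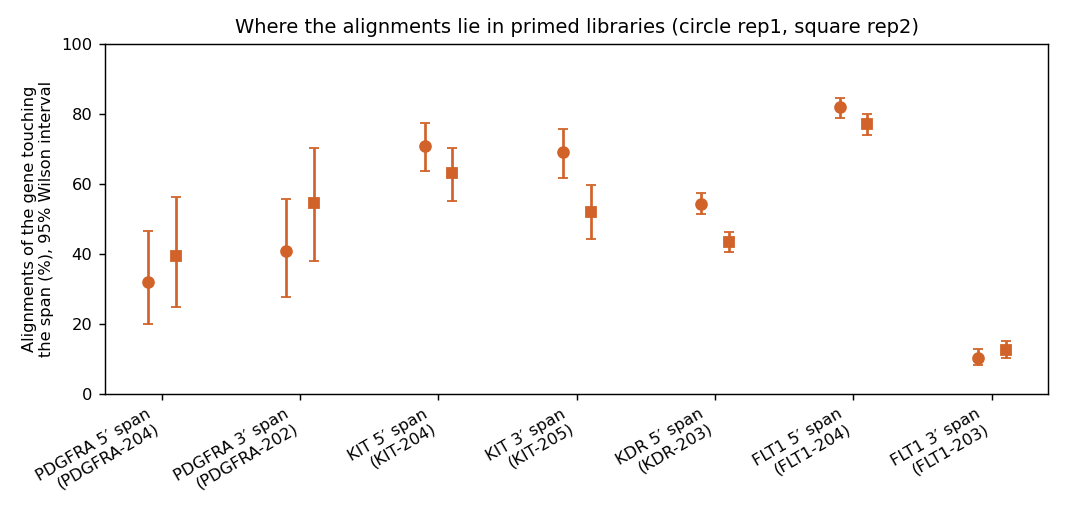
Share of the alignments of each receptor gene that touch a shorter transcript span near its start (5′) or further downstream (3′). Shares are of the primed libraries, in percent with 95% Wilson intervals (circles replicate 1, squares replicate 2). The spans labelled 3′ for PDGFRA and FLT1 stop before the end of the gene. The full count of KDR may include alignments of the overlapping lncRNA. The downstream span of FLT1 was touched by 10.3% and 12.4%, and its upstream span by 81.8% and 77.2%.

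Among the ligands, the share of VEGFA alignments confined to its first bases was higher in both naïve libraries. Alignments that missed VEGFA-204, whose span lacks only the first bases of VEGFA-226, were 35 of 109 and 44 of 184 in naïve and 4 of 55 and 12 of 75 in primed libraries. The shares were 32.1% and 23.9% in naïve and 7.27% and 16.0% in primed hESCs, so the states did not overlap, while the interval of naïve replicate 2 (18.3% to 30.6%) overlaps that of primed replicate 2 (9.40% to 25.9%). The antisense lncRNA ENSG00000272114 lies in these first bases, and its part in the shares was not tested. For PDGFA, the span of PDGFA-201 was touched by 73.3% and 73.1% of naïve and 70.0% and 59.2% of primed alignments. KITLG gives a membrane-bound and a secreted ligand by the use of a single internal exon, which counts over spans cannot resolve. The coding transcripts KITLG-201, with 143 and 141 primed counts, and KITLG-205, with 138 and 133, differ in span only at their start. The upstream and downstream spans KITLG-204 and KITLG-203 were each touched by most primed alignments, at 83.9% and 80.9% and at 86.0% and 76.6%.

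The neighbourhood of the receptors was examined to place their differences among those of nearby genes. Within 1000000 bases on either side of PDGFRA, KIT and KDR lie 57 other annotated genes, of which 24 were tested. Of these, 9 were higher and 10 lower in primed hESCs and 5 were not called, which is 79.2% called beside 70.0% of all genes. By library size in place of TMM the split was 12 higher and 5 lower, and EXOC1, NMU and SCFD2 turned from lower to higher. The genes around the receptors thus went in both directions.

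On the KDR side, SRD5A3, an enzyme of dolichol synthesis for protein glycosylation, had 58 and 75 counts in naïve and 325 and 301 in primed libraries. Its log2 fold change was 1.93 (SE 0.205, adjusted p = 3.54e-11, edgeR's quasi-likelihood test). The read-through gene ENSG00000288695 covers SRD5A3 and holds nearly the same alignments, with a log2 fold change of 1.93 (adjusted p = 2.72e-11, edgeR). PDCL2, a phosducin-like gene, was lower, with 244 and 279 counts in naïve and 23 and 21 in primed libraries and a log2 fold change of -3.87 (SE 0.246, adjusted p = 4.49e-18, edgeR). It lies beyond SRD5A3 and CLOCK, a circadian transcription factor gene that overlaps TMEM165 and whose log2 fold change was 0.99. On the PDGFRA side, LNX1-AS1 had 257 and 302 counts in naïve and 70 and 75 in primed libraries, with a log2 fold change of -2.25 (SE 0.201, adjusted p = 2.73e-13, edgeR). LNX1-AS1 lies within ENSG00000282278, the read-through gene that also overlaps PDGFRA, and which fell by 1.07 on the log2 scale. FIP1L1, a pre-mRNA polyadenylation factor, and CHIC2, between it and PDGFRA, were also lower in primed hESCs, by log2 fold changes of -0.90 and -1.06. Both overlap the read-through gene. The called genes on the PDGFRA side with a mean count of 50 or more were all lower in primed hESCs (SCFD2, FIP1L1, LNX1, LNX1-AS1, CHIC2 and ENSG00000282278). SCFD2 turned with library size. FIP1L1, LNX1, LNX1-AS1 and CHIC2 overlap ENSG00000282278 and can share alignments with it, so these genes are not separate observations. The KDR side held genes of both directions. RPL22P13, a ribosomal protein pseudogene just before PDGFRA, had 0, 1, 14 and 62 counts, and reads of its parent gene can be counted there. It was named after its values were seen.

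**Figure D4:**
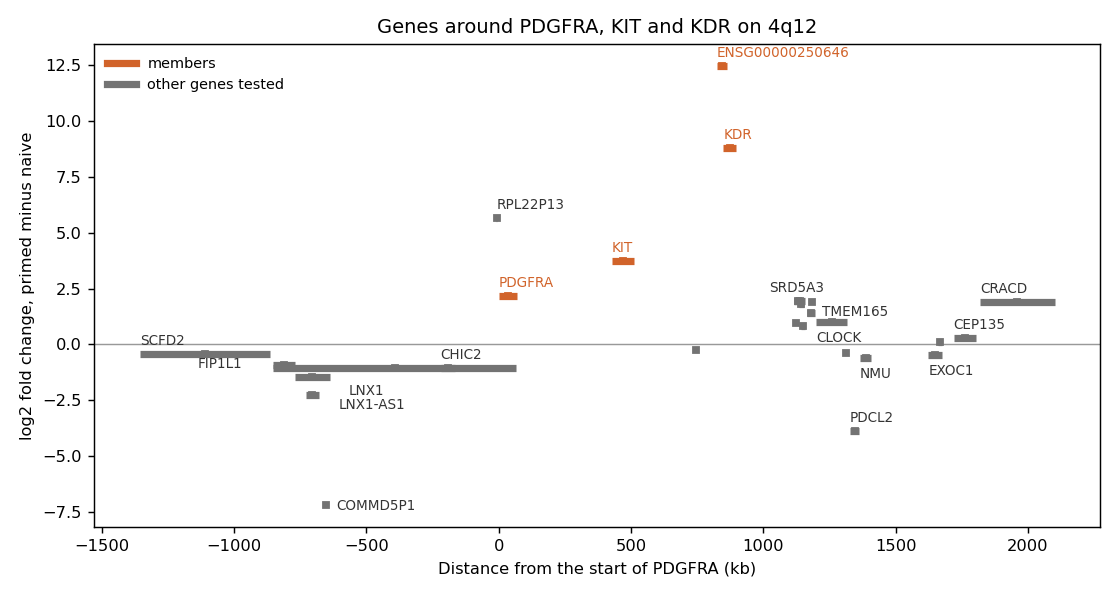
Log2 fold change (primed minus naïve) of PDGFRA, KIT, KDR and ENSG00000250646 (orange) and of the 24 other tested genes (grey) by distance from the PDGFRA start in kb, each bar spanning its gene. PDGFRA, KIT and KDR lie above 0, and their neighbours lie on both sides of 0.

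Other genes of the pathway were taken from a list of 16 receptors and ligands of the same families and 28 signalling effectors. Of these 44 genes, 42 were tested, and 10 were higher and 14 lower in primed hESCs, while 18 were not called. The share called was 57.1%, under the 70.0% of all genes, and the median log2 fold change was -0.05, beside 0.08 over all genes. With library size in place of TMM, 23 were higher and 7 lower. The pathway genes thus moved in both directions.

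Among receptors and ligands, 4 of 14 tested genes were higher and 3 lower in primed hESCs. PGF, placental growth factor, a ligand of FLT1, was the most changed, with 2135 and 1892 counts in naïve and 39 and 44 counts in primed libraries. Its log2 fold change was -5.91 (SE 0.202, adjusted p = 1.10e-27, edgeR's quasi-likelihood test). PGF was thus high where FLT1 was low, as VEGFA was. Trophoblast markers moved with PGF, with 5 of 6 lower in primed hESCs and a summed level of 1657 and 1990 CPM in naïve and 4.62 and 3.55 CPM in primed libraries, and their part in the level of PGF was not tested. NRP1, a co-receptor of VEGFA, had 408 and 557 counts in naïve and 102 and 78 in primed libraries, a log2 fold change of -2.72 (SE 0.192, adjusted p = 1.69e-16, edgeR). A lncRNA that overlaps NRP1, ENSG00000238258, held counts equal to 52.0% of those of NRP1. PDGFD, a ligand of PDGFRB, rose from 4 and 3 counts to 54 and 65, a log2 fold change of 3.74 (adjusted p = 1.22e-09, edgeR). FLT3 had 1 and 8 counts in naïve and 23 and 39 in primed libraries, with a log2 fold change of 2.45 (adjusted p = 6.02e-05, edgeR).

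The remaining calls among receptors and ligands were small. PDGFRB had a log2 fold change of 0.74 (adjusted p = 0.0407, edgeR) and PDGFRL one of -0.58 (adjusted p = 0.0408, edgeR), and the sign of PDGFRL turned with library size in place of TMM. MTUS1, which overlaps PDGFRL, had counts equal to 318.8% of those of PDGFRL. IL34, a ligand of CSF1R, had 446 and 505 counts in naïve and 799 and 791 in primed libraries, with a log2 fold change of 0.44 (SE 0.152, adjusted p = 0.0103, edgeR). The call of IL34 was lost, at adjusted p = 0.327, with counts summed over transcripts, and also without naïve replicate 1, naïve replicate 2 or primed replicate 1, at adjusted p between 0.0649 and 0.0764 (edgeR). CSF1R had a log2 fold change of -0.11 (adjusted p = 0.480, edgeR), but RPL7P1, a ribosomal protein pseudogene inside its span, had counts equal to 99.8% of those of CSF1R. PDGFB, VEGFB, VEGFC, FLT4, NRP2 and FLT3LG were not called either, and VEGFD and CSF1 had too few counts to be tested.

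Among the 28 signalling effectors, 6 were higher and 11 lower in primed hESCs. STAT5B, a transcription factor activated downstream of KIT, had 64 and 110 counts in naïve and 231 and 341 in primed libraries, a log2 fold change of 1.41 (SE 0.214, adjusted p = 1.89e-07, edgeR's quasi-likelihood test). FYN, a SRC family kinase, had a log2 fold change of 0.99 (SE 0.190, adjusted p = 1.34e-05, edgeR). The adaptor GAB2 had 733 and 1048 counts in naïve and 221 and 268 in primed libraries, a log2 fold change of -2.16 (SE 0.167, adjusted p = 2.97e-15, edgeR), and the overlapping ENSG00000254420 held counts equal to 85.9% of its own. CBLB, a ubiquitin ligase that marks activated receptors for removal, fell from 800 and 1224 counts to 354 and 419, a log2 fold change of -1.69 (SE 0.164, adjusted p = 3.02e-12, edgeR). Its relative CBL moved the other way, with a log2 fold change of 0.63, and the SRC family kinase LYN went down with a log2 fold change of -1.60. Related effectors therefore differed in direction. GAB1 and CRKL, called lower, turned to higher with library size in place of TMM.

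**Figure D5:**
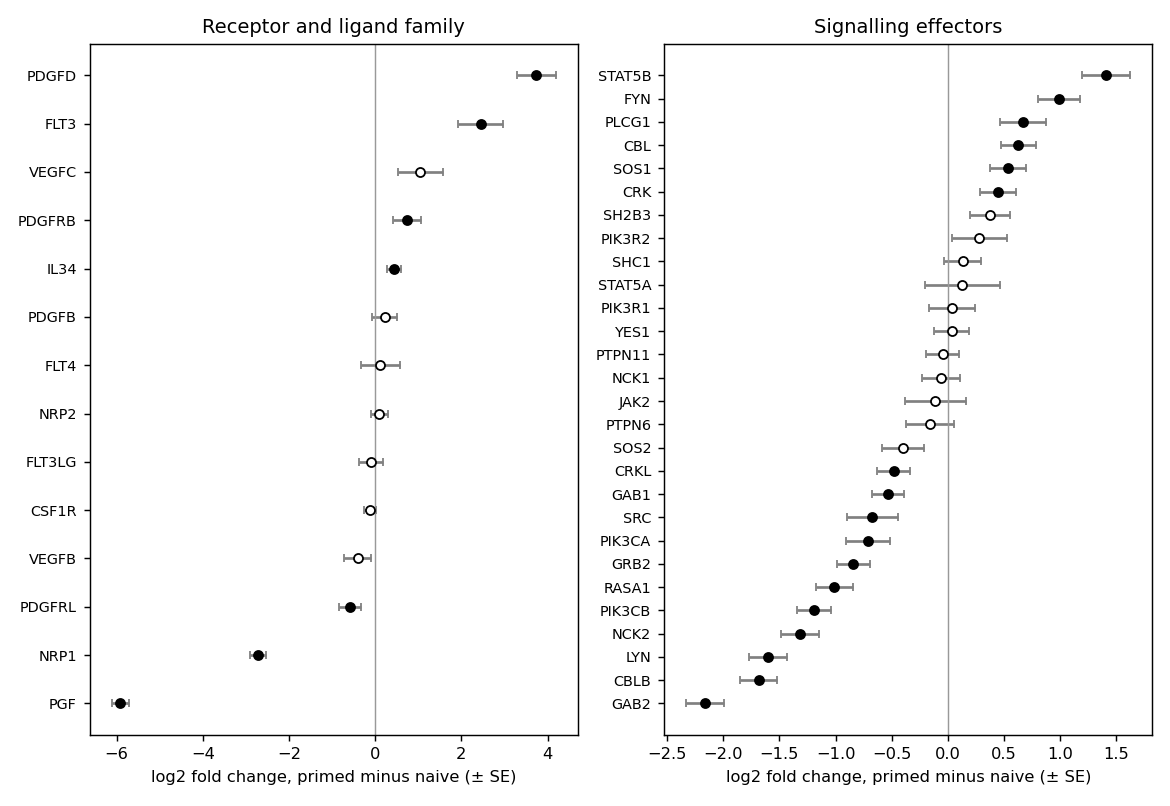
Log2 fold change (primed minus naïve) with its SE for the tested genes of the receptor and ligand family (left) and the signalling effectors (right), with filled points called by edgeR at an adjusted p under 0.05 and open points not called. PGF, at -5.91, and PDGFD, at 3.74, lie at the ends of the family list.

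VEGFA is known to be induced at low oxygen, and the naïve hESCs were grown at low oxygen, so 10 further genes known to respond to hypoxia were examined beside it. Of these, 2 were higher and 5 lower in primed hESCs, and 3 were not called, so that 70.0% were called, the same share as over all genes. By library size, 5 were higher and 4 lower. NDRG1, a stress-response gene, had 327 and 332 counts in naïve and 12 and 20 in primed libraries, a log2 fold change of -4.66 (SE 0.255, adjusted p = 2.29e-20, edgeR's quasi-likelihood test). EGLN3, an oxygen-sensing prolyl hydroxylase, had a log2 fold change of -2.16 (SE 0.150, adjusted p = 9.54e-17, edgeR), but the overlapping gene SPTSSA had counts equal to 97.8% of those of EGLN3. PDK1, a kinase that inhibits pyruvate dehydrogenase, was higher, with 95 and 125 counts in naïve and 348 and 421 in primed libraries and a log2 fold change of 1.50 (SE 0.187, adjusted p = 2.38e-09, edgeR). ANKRD37 was also higher, with a log2 fold change of 0.63 (adjusted p = 0.00136, edgeR), and both genes overlap genes with larger counts. VEGFA was lower in primed hESCs with ADM, BNIP3 and SLC2A1, whose log2 fold changes were -1.44, -1.08 and -0.79. LDHA, PGK1 and CA9 were not called. The part of oxygen in the level of VEGFA was not tested.

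KDR and FLT1 are also known as markers of endothelium and PDGFRA of primitive endoderm, so markers of these cell types were examined. Of 6 genes of endothelium and blood, only CDH5 and TEK had enough counts to be tested, and they moved in opposite directions. CDH5, VE-cadherin, had 118 and 132 counts in naïve and 2 and 0 in primed libraries (log2 fold change -7.09, adjusted p = 6.45e-17, edgeR, and -10.09 without primed replicate 1 or -6.14 without primed replicate 2), and TEK, the angiopoietin receptor, had 2 and 4 in naïve and 80 and 85 in primed libraries (log2 fold change 4.42). TIE1 and ETV2, too low to be tested, had more counts in both primed libraries, as TEK did. TIE1 had 0 and 0 counts in naïve and 13 and 9 in primed libraries. ETV2 had 3 and 2 in naïve and 12 and 9 in primed libraries. PECAM1 had between 4 and 5 counts in every library, and TAL1 had 0 and 0 in naïve and 0 and 1 in primed libraries. The summed level of the list was 5.50 and 5.60 CPM in naïve and 3.80 and 3.55 CPM in primed libraries. KDR was at 37.8 CPM in primed hESCs, above the sum of these markers, on its full count, part of which the overlapping lncRNA may hold. The source of the KDR level was not tested. Of 6 primitive endoderm markers, 4 were tested, of which none was higher and 3 were lower in primed hESCs, where PDGFRA was higher. Of those called lower, HNF4A had 105 and 120 counts in naïve and 7 and 11 in primed libraries. GATA6 had 77 and 99 in naïve and 16 and 37 in primed libraries. COL4A1 was also lower, and the overlapping COL4A2 had counts equal to 87.0% of its own. GATA4, SOX17 and FOXA2 had more counts in both primed libraries, as PDGFRA did. GATA4, not called, had 5 and 7 in naïve and 16 and 12 in primed libraries. SOX17 (1 and 0 naïve, 3 and 2 primed) and FOXA2 (0 and 0 naïve, 3 and 7 primed) were too low to be tested. The summed level was 18.8 and 26.7 CPM in naïve and 8.55 and 8.63 CPM in primed libraries. COL4A1 held most of it, at 10.7 and 17.8 CPM in naïve and 7.03 and 6.39 CPM in primed libraries. In bulk RNA, fewer cells that express a gene and less RNA per cell cannot be told apart.

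The genes most like each receptor over the 4 libraries were found by the Euclidean distance between centred log2(CPM + 1) profiles, among up to 14706 genes whose mean count was 50 or more. The added 1 compresses low values, so for PDGFRA and KIT the nearest genes can differ from them in fold change. OFD1, the nearest to PDGFRA, had 206 and 349 counts in naïve and 673 and 601 in primed libraries, a smaller ratio than that of PDGFRA. For KDR, the nearest were LINC02540 at a distance of 0.124, OCIAD2 at 0.201 and PTPRZ1, a receptor tyrosine phosphatase, at 0.215. For FLT1, they were PREX2 at 0.0568, KIF1A at 0.123 and KCNT2 at 0.143. For KIT, they were IGFBP6 at 0.0503, FAR2P2 at 0.0536 and ERVH-1 at 0.0557. For PDGFRA, they were OFD1 at 0.0471, BLOC1S6 at 0.0680 and ZNF610 at 0.101. PTPRZ1, for example, had 5 and 5 counts in naïve and 1082 and 1136 in primed libraries, close to the counts of KDR.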

How the data were processed

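H1 naïve and primed hESCs were sequenced as Nanopore cDNA, with 2 libraries per state. The authors aligned reads with minimap2 and deposited raw counts per transcript from featureCounts 2.0.0 on the Ensembl 105 annotation of GRCh38. Per the file headers, whole transcript spans were counted without strand, an alignment counted for every transcript it overlapped, and every alignment of a multi-mapped read counted. These are counts of alignments, not molecules.

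Transcripts were matched to GENCODE 44 by identifier. Of 244825, 2283 transcripts, with 1.00% of the counts, were unmatched and left out of the tests, and 97.9% of matched transcripts had the same position (90 of 95 of the genes described). A gene's count was that of its transcript with the largest mean count. Genes were tested two-sided, given 10 or more counts in 2 or more libraries, by edgeR 4.0.16 in R 4.3.3 (TMM, quasi-likelihood, Benjamini-Hochberg over all genes). Where a span encloses another, the difference of their counts is the alignments that miss the inner span. The ratio of summed counts has an exact conditional interval. The genes described and all lists were chosen with earlier results of these data known. Named list genes were the 2 called genes in each direction with the largest change at a mean count of at least 50, and further genes were named after their values were seen. Tables were made with pandas 2.3.3 and scipy 1.17.1 in Python 3.11.15.

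Alternatives were DESeq2 1.42.0, library size, RLE, other filters and gene counts, a log2 threshold of 1, the replicate number as a block, and each library left out. The fits were tested on simulated data. The sequence before the start of the lncRNA is not reported here.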

Additional observations from a re-analysis of the deposited data

How the results depend on the processing

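The direction of all 9 genes was kept in every alternative that gave a value. Their log2 fold changes ranged from 7.23 to 9.60 for KDR, 5.44 to 6.24 for FLT1, 3.66 to 4.38 for KIT, 1.31 to 4.72 for PDGFRA, 6.60 to 7.60 for KITLG, 1.51 to 3.72 for PDGFC, -1.32 to -0.51 for PDGFA and -1.75 to -0.84 for VEGFA. PDGFRA and PDGFC were not tested with a filter of at least 50 counts. Among all genes, 19336 were called, and between 13013 (log2 fold change beyond 1) and 21141 (no filter) under the alternatives, with 16214 by DESeq2. Library size in place of TMM called 20036, of which 15524 were higher and 4512 lower in primed hESCs, against 10327 and 9009. Leaving out 1 library gave between 17543 and 17995, where the lone library of a state was assumed to vary like the other state. Of the 24 pathway genes called, 11 had a log2 fold change beyond 1, with 3 higher and 8 lower, since fewer genes can pass, and without 1 library 20 were called. With the replicate block, 19689 genes and 26 pathway genes were called. Replicate differences of the states correlated at 0.0782 over 17615 genes, and the labels give no shared batch. With so few libraries, this cannot decide whether equal replicate numbers share a culture or a run.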

Other observations

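Markers of trophoblast, germ cells and mesoderm were also counted. Of 6 trophoblast genes, 5 were lower in primed hESCs and 1, KRT7, was not called. CGA, the alpha subunit of glycoprotein hormones, had 35747 and 47550 counts in naïve and 0 and 1 in primed libraries, and TFAP2A, a transcription factor, had 823 and 1008 in naïve and 3 and 0 in primed libraries. GATA3 had 976 and 1151 counts in naïve and 15 and 16 in primed libraries, and GATA2 had 619 and 985 in naïve and 4 and 3 in primed libraries.

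KIT is a known marker of germ cells, and of 6 germ cell genes 1 was higher and 3 lower in primed hESCs. DAZL, an RNA-binding protein gene, had 6 and 1 counts in naïve and 320 and 342 in primed libraries, with an overlapping gene of similar count, ENSG00000229271. SYCP3 had 306 and 365 in naïve and 28 and 31 in primed libraries, with the overlapping CHPT1 at 110.8% of its count, and TFAP2C had 221 and 372 in naïve and 57 and 75. The summed level was 26.1 and 33.3 CPM in naïve and 15.0 and 15.7 CPM in primed libraries. Of 6 mesoderm genes, 4 were tested, of which TBX6 was higher, HAND1 was lower and 2 were not called. POU5F1, a factor shared by both states, was not called, with a log2 fold change of -0.05, while SOX2, which overlaps SOX2-OT, was higher and NANOG lower, with log2 fold changes of 2.38 and -1.62.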
